A study of Mus musculus with 2 samples.

Results

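The cells described here carried markers of both main cell types of the renal collecting duct under a single barcode. A barcode was kept with at least 500 UMIs (unique molecular identifiers, each standing for 1 captured transcript), at least 200 genes and under 50% mitochondrial UMIs. Members were then chosen by their measured counts of 5 genes: a barcode was taken if it held at least 3 UMIs of Atp6v1g3 and if Aqp2, Aqp3, Hsd11b2 and Fxyd4 together made up at least 0.3% of its UMIs. Of 11607 kept cells, 274 met both conditions. They are called dual-marker cells below. Kidneys of 5-week-old mice were profiled by single-cell 3' RNA sequencing on the 10x Chromium platform, after cold protease dissociation, dead cell removal and red cell lysis. There was 1 library from Kif3aΔTub mice, in which the kinesin-2 motor gene Kif3a, needed to build the primary cilium, is deleted in renal tubules, and 1 from WT mice, with no other allele or treatment named. The Cre driver, the deleted stretch of Kif3a and the number of mice behind each library are not given in the sources used here. With 1 library per genotype no difference between genotypes has a replicate check, so no test was made. The intervals given are at the 95% level and allow for counting error, not for variation between mice.

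Principal cells and intercalated cells sit side by side in the collecting duct. Principal cells take up sodium through the epithelial sodium channel (Scnn1a, Scnn1b, Scnn1g) and water through aquaporins under the control of the vasopressin receptor Avpr2, and secrete potassium through Kcnj1. Intercalated cells move acid and base. They pump protons with a vacuolar ATPase that holds cell-type-specific subunits such as Atp6v1g3 and Atp6v0d2, and their identity depends on the transcription factor Foxi1. Type A intercalated cells export bicarbonate through Slc4a1 on the basolateral side, and type B cells through Slc26a4, pendrin, on the apical side. In mouse kidney, Notch signalling directs cells to the principal fate, and cells with markers of both fates have been described as transitional. A droplet that captures a cell of each type also gives both sets of markers under a single barcode.

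The Kif3aΔTub library gave 250 dual-marker cells and the WT library 24. They made up 3.45% (3.05 to 3.90) of 7236 kept cells in the Kif3aΔTub library and 0.549% (0.352 to 0.816) of 4371 in the WT library. Set against intercalated cells, they were 33.7% (30.3 to 37.3) of the 741 Kif3aΔTub cells and 7.67% (4.97 to 11.2) of the 313 WT cells with at least 3 UMIs of Atp6v1g3. Set against principal cells, they were 11.2% (9.89 to 12.5) of the 2238 Kif3aΔTub cells and 11.9% (7.76 to 17.2) of the 202 WT cells at or above the 0.3% threshold. Among kept cells and intercalated cells the share was higher in the Kif3aΔTub library, and among principal cells the intervals overlapped. With a principal threshold of 1% the shares were 1.12% of kept cells in Kif3aΔTub and 0.297% in WT, and 10.9% of Kif3aΔTub and 4.15% of WT cells with at least 3 UMIs of Atp6v1g3. With a mitochondrial limit of 25% they were 3.90% in Kif3aΔTub and 0.997% in WT of kept cells, and 35.2% and 12.3% of cells with at least 3 UMIs of Atp6v1g3. Cells at the principal threshold were themselves more numerous in the Kif3aΔTub library. The part of this makeup in the shares was not tested.

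Across the series, total counts were 84810251 UMIs in the Kif3aΔTub library and 60945147 in the WT library. Kept cells had medians of 7915 and 7847 UMIs and of 7.55% and 26.8% mitochondrial UMIs in the Kif3aΔTub and WT libraries. The libraries shared 20 barcodes, of which 0 belonged to dual-marker cells. Kif3a was too sparse to check the labels in these cells, at 8.55 CPM (UMIs of a gene scaled to a total of 1000000) in Kif3aΔTub from 70 UMIs and 15.7 CPM in WT from 10 UMIs. Its log2 ratio was -0.94 (-1.84 to 0.24), and a 3' read may lie outside the deleted stretch.

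For comparison within each library, intercalated-only cells had at least 3 UMIs of Atp6v1g3 and the 4 principal genes under 0.3%, and principal-only cells had 0 UMIs of Atp6v1g3 with the 4 genes at 0.3% or more and at least 3 UMIs. Cells that passed the gate of another class were left out of both. No gate was set for connecting tubule cells. This gave 480 Kif3aΔTub and 280 WT intercalated-only cells, and 1772 Kif3aΔTub and 169 WT principal-only cells.

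The gate genes set the choice, so their levels are a description. Atp6v1g3, on mm10 chromosome 1 from 138273738 to 138289462 on the plus strand, had a median of 25 UMIs per dual-marker cell in Kif3aΔTub and 29.5 in WT. Intercalated-only cells had medians of 30 in Kif3aΔTub and 27.5 in WT. Most dual-marker cells therefore lay far above the threshold of 3 UMIs, at an Atp6v1g3 count per cell close to that of intercalated-only cells. As a share of UMIs the gene was lower in dual-marker cells. Its medians were 0.0887% against 0.326% in intercalated-only cells of Kif3aΔTub, and 0.115% against 0.280% in WT. The 4 principal genes summed to medians of 234 UMIs in Kif3aΔTub and 215 in WT dual-marker cells, against 107.5 and 153 in principal-only cells. UMIs of all 4 genes were found in 236 of 250 Kif3aΔTub and 24 of 24 WT dual-marker cells.

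**Figure D1:**
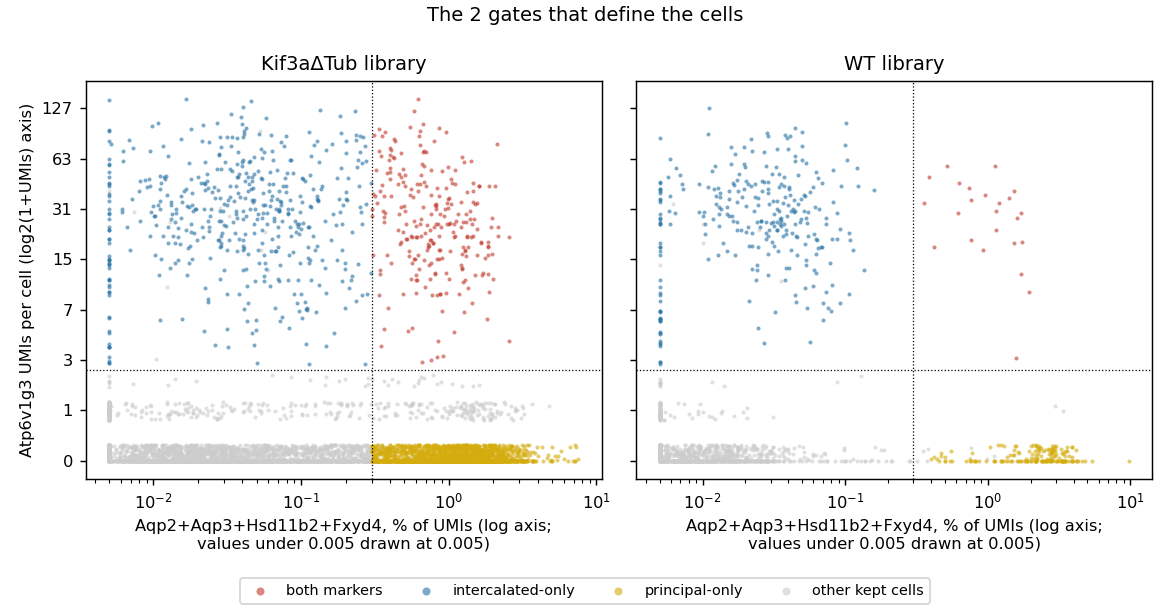
Each point is a kept cell of the Kif3aΔTub library (left) or the WT library (right). The horizontal axis gives the 4 principal genes as percent of UMIs on a log axis and the vertical axis gives Atp6v1g3 UMIs on a log2(1+UMIs) axis with small random shifts. Dotted lines mark the 2 gates. The 250 Kif3aΔTub and 24 WT dual-marker cells (red) lie mostly well above 3 UMIs of Atp6v1g3, and the Kif3aΔTub cells run on without a gap into cells just under 0.3%.

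Close to the thresholds, 4 Kif3aΔTub and 1 WT dual-marker cells had exactly 3 UMIs of Atp6v1g3, and 17 Kif3aΔTub and 0 WT cells at the principal threshold had exactly 2. Of cells with at least 3 UMIs of Atp6v1g3, 31 Kif3aΔTub and 2 WT cells lay at 0.3% to 0.4% for the principal genes, and 33 Kif3aΔTub and 0 WT cells at 0.2% to 0.3%. In the Kif3aΔTub library the principal threshold thus ran through a continuum of cells, while few WT cells lay near it.

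Aqp2, the vasopressin-regulated water channel (chromosome 15, 99579055 to 99584547, plus strand), summed to 3091 CPM in Kif3aΔTub and 2773 CPM in WT dual-marker cells. Principal-only cells had 4494 CPM in Kif3aΔTub and 8347 CPM in WT, and intercalated-only cells had 85.1 and 13.8 CPM. Fxyd4, a regulator of the sodium pump (chromosome 6, 117933559 to 117937692, minus strand), had 3170 CPM in Kif3aΔTub and 3932 CPM in WT dual-marker cells, against 4009 and 7705 CPM in principal-only cells. Aqp3, the basolateral water channel, had 841 CPM in Kif3aΔTub and 1571 CPM in WT dual-marker cells. Hsd11b2, the enzyme that shields the mineralocorticoid receptor from glucocorticoids, had 2243 and 2963 CPM. All 4 genes were read in the dual-marker cells at levels below those of the WT principal-only cells.

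Dual-marker cells were deep. Their median was 29316.5 UMIs in Kif3aΔTub, with a range of 662 to 86492, and 23439 in WT, with a range of 10110 to 49478. Intercalated-only cells had medians of 9698.5 in Kif3aΔTub and 11493.5 in WT, and principal-only cells 10212 and 6640. The dual-marker median was 1.47 times the sum of both single-identity medians in Kif3aΔTub and 1.29 times that sum in WT. In all, 196 of 250 Kif3aΔTub cells (78.4%) and 20 of 24 WT cells (83.3%) lay above that sum. Among intercalated-only cells 12.5% in Kif3aΔTub and 12.1% in WT did so, and among principal-only cells 19.6% and 2.37%.

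Only 4 Kif3aΔTub cells and 1 WT cell had fewer UMIs than the median intercalated-only cell of their library. The Kif3aΔTub ones held 662, 6393, 7564 and 8630 UMIs, with 3, 5, 10 and 3 UMIs of Atp6v1g3. The WT one held 10110 UMIs and 3 UMIs of Atp6v1g3. Foxi1 had 1 UMI in the shallowest of these 5 cells and 0 in the other 4.

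**Figure D2:**
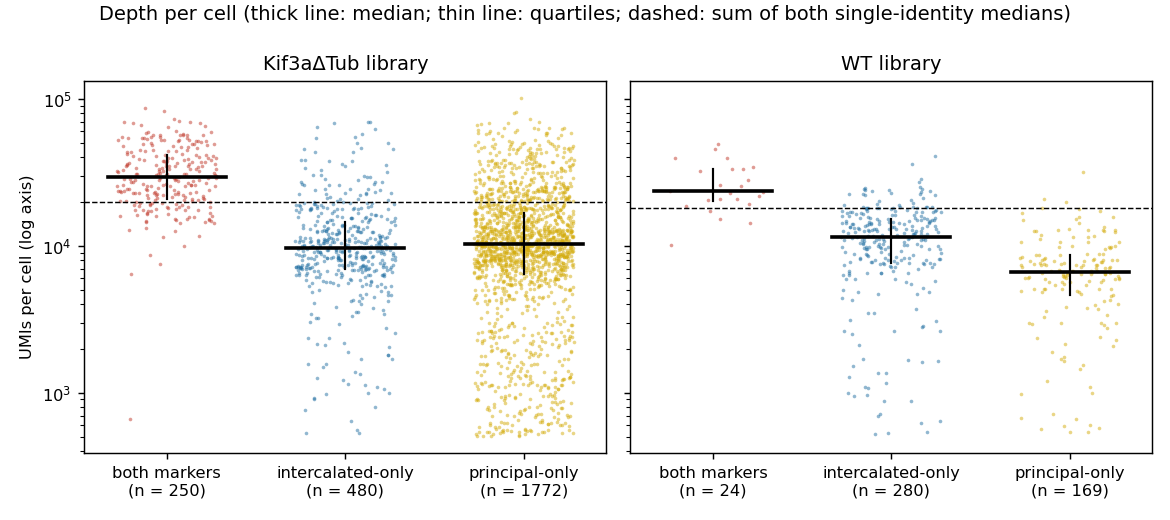
UMIs per cell on a log axis for dual-marker ("both markers"), intercalated-only and principal-only cells of the Kif3aΔTub library (left) and the WT library (right). Each point is a cell, the thick line is the median, the thin line runs between the quartiles, and the dashed line is the sum of both single-identity medians. The dual-marker medians of 29316.5 in Kif3aΔTub and 23439 in WT lie above the dashed line.

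The share of cells with both markers was larger in deeper cells. The Atp6v1g3 gate is a count of at least 3 UMIs, which deeper cells reach more easily, while principal-only cells needed 0. In the Kif3aΔTub library, dual-marker cells were 1 of 405 principal-threshold cells with 500 to 5000 UMIs, 4 of 546 with 5000 to 10000, 49 of 676 (7.25%) with 10000 to 20000, 127 of 429 (29.6%) with 20000 to 40000 and 69 of 182 (37.9%) above 40000. In the WT library the same bins gave 0 of 52, 0 of 92, 6 of 38 (15.8%), 16 of 18 (88.9%) and 2 of 2. At 20000 UMIs or more, dual-marker cells were 196 of 258 (76.0%) Kif3aΔTub and 18 of 44 (40.9%) WT cells with at least 3 UMIs of Atp6v1g3. Under 20000 UMIs they were 54 of 483 (11.2%) and 6 of 269 (2.23%). The share was thus larger in deeper cells in both libraries, against either denominator. Thinning left out cells under 4000 UMIs and cut each remaining cell to 4000 UMIs at random. Dual-marker cells were then 27.8% of Kif3aΔTub and 6.18% of WT cells with at least 3 UMIs of Atp6v1g3. They were 8.50% and 10.1% of principal-threshold cells. The cells that met both gates after thinning had been deep before it, with medians of 25806.5 UMIs in Kif3aΔTub and 23439 in WT, against 10100 and 12211 in intercalated-only and 12049 and 7470 in principal-only cells. The part of depth in the shares was not tested.

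More genes were read in the deeper cells. Dual-marker cells had medians of 6021 genes in Kif3aΔTub and 5150.5 in WT, against 3215 and 3223.5 in intercalated-only and 3339.5 and 2572 in principal-only cells. Thinned to 4000 UMIs, dual-marker cells had 1910 genes in Kif3aΔTub and 1813 in WT. Intercalated-only cells then had 1842.5 and 1625, and principal-only cells 1845 and 1844. At equal depth all medians thus lay between 1625 and 1910 genes. Mitochondrial UMIs lay between the single-identity medians, at 8.28% in Kif3aΔTub and 21.4% in WT dual-marker cells, against 10.2% and 24.97% in intercalated-only and 7.22% and 14.3% in principal-only cells.

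Scrublet, which scores each cell by its likeness to simulated sums of 2 cells, marked 9 of 250 Kif3aΔTub dual-marker cells (3.6%) and 0 of 24 in WT, where a count of 0 allows up to 12.5%. It marked 2.42% of all kept Kif3aΔTub cells and 1.44% of kept WT cells. Median scores of dual-marker cells were 0.0805 in Kif3aΔTub and 0.136 in WT, under the calling thresholds of 0.225 and 0.259. They were above the medians of intercalated-only cells, 0.0212 and 0.0303, and of principal-only cells, 0.0462 and 0.0260. Dual-marker cells thus scored higher than either single-identity kind in both libraries, while few of them were called.

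Cells of other kidney classes show how often Atp6v1g3 appeared where it should be absent. Cells passing gates for proximal tubule, thick limb, distal convoluted tubule, endothelium, myeloid or lymphoid cells held at least 3 UMIs of Atp6v1g3 in 14 of 2560 Kif3aΔTub cells (0.547%, 0.299 to 0.916) and 10 of 3202 WT cells (0.312%, 0.15 to 0.574). At the principal threshold the shares were 11.2% and 11.9%. Median depths were 5205 UMIs in Kif3aΔTub and 9233.5 in WT for the 6 classes together, against 11364 and 7205 at the principal threshold. Thinned to 4000 UMIs, the 6 classes had 0.693% in Kif3aΔTub and 0.242% in WT, against 8.50% and 10.1% of principal-threshold cells. At equal depth the principal share was above that of the 6 classes together in both libraries.

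Individual classes varied. Proximal tubule cells reached 3 UMIs in 2 of 714 Kif3aΔTub and 6 of 2541 WT cells, thick limb cells in 0 of 258 and 1 of 329, endothelial cells in 5 of 470 and 2 of 149, and myeloid cells in 7 of 1044 and 0 of 12. Thinned to 4000 UMIs, endothelial cells had the highest share of the 6 classes in each library, at 5 of 153 in Kif3aΔTub (3.27%, 1.07 to 7.46) and 2 of 36 in WT (5.56%, 0.680 to 18.7). That WT interval overlaps the one of WT principal-threshold cells, 5.86 to 15.8. Leaving out cells under 4000 UMIs took endothelium from 470 to 153 Kif3aΔTub cells and from 149 to 36 WT cells. The thinned shares thus describe the deeper cells of each class. The reverse overlap, cells of the 6 classes that reached the principal threshold, was found in 39 of 2560 Kif3aΔTub cells (1.52%) and 6 of 3202 WT cells (0.187%). Thinned, it was 2.71% in Kif3aΔTub and 0.121% in WT, with Kif3aΔTub endothelium at 4.58% and myeloid cells at 4.52%. A larger share of cells of other classes thus reached the principal threshold in the Kif3aΔTub library than in the WT library, and the part of this overlap in the dual-marker counts was not tested. The cells of other classes with at least 3 UMIs of Atp6v1g3 too were deep, with medians of 18099.5 UMIs for the 14 Kif3aΔTub cells and 19971.5 for the 10 WT cells. Scrublet marked 12 of these 14 Kif3aΔTub cells and 6 of these 10 WT cells, against 9 of 250 and 0 of 24 dual-marker cells. How well Scrublet marks pairs of a principal and an intercalated cell was not tested. Of the dual-marker cells themselves, 3 in Kif3aΔTub passed the myeloid gate and 1 in WT passed the proximal tubule gate. These cells are also among the 14 Kif3aΔTub and 10 WT cells, so the groups compared overlap.

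**Figure D3:**
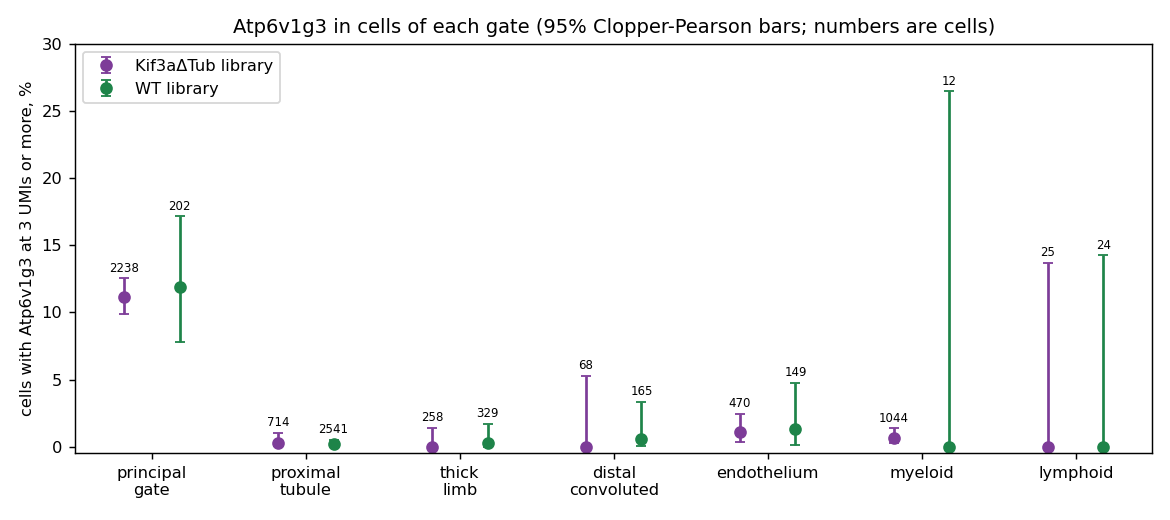
Percent of cells with at least 3 UMIs of Atp6v1g3 among cells that passed each class gate, for the Kif3aΔTub library (left of each pair) and the WT library (right). Bars are 95% Clopper-Pearson intervals and the numbers are cells per class. The principal gate stands at 11.2% in Kif3aΔTub and 11.9% in WT, and the next highest class is endothelium at 1.06% and 1.34%, though the intervals of the smallest classes are wide.

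Identity genes that the gates did not use were present from both programmes. Foxi1 (chromosome 11, 34204338 to 34208089, minus strand) had at least 1 UMI in 93.2% of Kif3aΔTub and 91.7% of WT dual-marker cells. Scnn1g, the gamma subunit of the sodium channel, had a UMI in 90.8% and 87.5%. UMIs of both genes were found in 84.8% of Kif3aΔTub and 83.3% of WT dual-marker cells. The same was true of 17.7% and 5.36% of the shallower intercalated-only cells and 8.13% and 0.592% of principal-only cells. Most dual-marker cells thus carried Foxi1 and a principal gene outside the rule together.

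Marker balance was read from 9 further intercalated genes and 11 further principal genes. In UMIs per cell, the intercalated list had medians of 136 in Kif3aΔTub and 148 in WT dual-marker cells, against 79 and 115.5 in intercalated-only and 24 and 24 in principal-only cells. The principal list had medians of 71 in Kif3aΔTub and 55.5 in WT dual-marker cells, against 41 and 31 in principal-only and 7 and 4 in intercalated-only cells. Dual-marker cells therefore held, for each list, more transcripts than the median cell of the matching single identity. They reached both single-identity medians at once in 180 of 250 Kif3aΔTub cells (72.0%, 66.0 to 77.5) and 17 of 24 WT cells (70.8%, 48.9 to 87.4). Intercalated-only cells did so in 25 of 480 and 0 of 280, and principal-only cells in 147 of 1772 and 2 of 169.

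As a share of each cell's UMIs the order was the other way round. The intercalated list made up 0.463% of UMIs in Kif3aΔTub and 0.625% in WT dual-marker cells, against 0.791% and 1.05% in intercalated-only cells and 0.237% and 0.369% in principal-only cells. That is 0.585 times the intercalated-only median in Kif3aΔTub and 0.598 times in WT. Within this list Tmem213 and Car2 had the most transcript, at 1932 and 1302 CPM in Kif3aΔTub dual-marker cells and 2228 and 1611 CPM in WT. Without Car2, Rhcg and Tmem213, an alternative chosen after seeing the data, the ratios were 0.398 in Kif3aΔTub and 0.592 in WT. The principal list made up 0.261% in Kif3aΔTub and 0.234% in WT, against 0.406% and 0.466% in principal-only and 0.0713% and 0.0368% in intercalated-only cells, or 0.643 and 0.502 times the principal-only median. Both lists thus stood between the single-identity levels in both libraries. Only 30 of 250 Kif3aΔTub cells and 0 of 24 WT cells reached the lower quartile of both single-identity kinds by share of UMIs.

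Cells varied around this balance. In Kif3aΔTub dual-marker cells the intercalated list ran from 0.0927% to 1.36% of UMIs and the principal list from 0 to 0.813%. In WT they ran from 0.435% to 0.958% and from 0.111% to 0.505%. Across the 250 Kif3aΔTub cells the Spearman correlation between the lists' shares was -0.0763, and across the 24 WT cells it was -0.316. These describe cells of a single library each, whose shares have a common denominator.

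**Figure D4:**
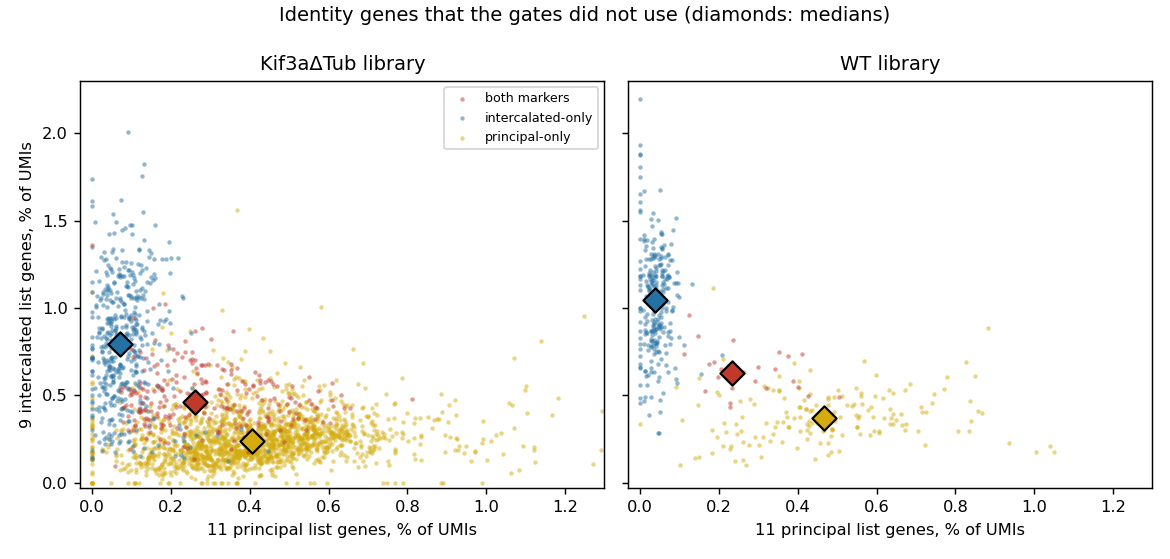
Percent of UMIs from 11 principal genes (horizontal) and 9 intercalated genes (vertical), none of them used by the gates, in single cells of the Kif3aΔTub library (left) and the WT library (right). Points are cells, diamonds are medians, and 28 cells of both libraries lie outside the axes. The dual-marker medians, at 0.261% and 0.463% in Kif3aΔTub and 0.234% and 0.625% in WT, lie between those of the single-identity cells on both axes.

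Genes at least 4-fold apart between the single-identity kinds were summed over cells. They were placed on a scale where 0 is the principal-only level and 1 the intercalated-only level. In Kif3aΔTub the dual-marker sum had a median position of 0.431 over 200 such genes, with quartiles of 0.355 and 0.519, and 199 of them lay between 0 and 1. In WT the median was 0.484 over 369 genes, with quartiles of 0.354 and 0.614, and 349 lay between. The genes were picked by these same comparators, and the dual-marker cells by markers of both kinds. A position between 0 and 1 was therefore likely in advance. Of all genes read deeply enough, 53.3% in Kif3aΔTub and 47.0% in WT lay between the single-identity levels. Intercalated-high genes had medians of 0.431 in Kif3aΔTub and 0.539 in WT, and principal-high genes 0.436 and 0.470. Intercalated-only cells contributed 0.487 of the summed median depths of both kinds in Kif3aΔTub and 0.634 in WT.

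Among intercalated genes, Foxi1 had 192 CPM in Kif3aΔTub and 230 CPM in WT dual-marker cells, against 415 and 385 CPM in intercalated-only and 16.5 and 6.61 CPM in principal-only cells. Atp6v0d2, a membrane-sector subunit of the proton pump, had 248 and 502 CPM against 622 and 864 CPM in intercalated-only cells. Hepacam2 had 73.9 and 139 CPM against 205 and 206 CPM in intercalated-only cells, and 0.753 and 0.826 CPM in principal-only cells. Rhcg, an ammonia channel found in both cell types, was the sole gene of the 9 outside the single-identity range in a library. It had 364 CPM in Kif3aΔTub dual-marker cells against 252 CPM in intercalated-only and 344 CPM in principal-only cells. Of 7 type A genes, 6 lay between the single-identity levels and 1 above both in each library.

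Among principal genes, Avpr2 had 118 CPM in Kif3aΔTub and 129 CPM in WT dual-marker cells, against 193 and 260 CPM in principal-only and 16.4 and 3.38 CPM in intercalated-only cells. Kcnj1 had 166 and 235 CPM against 265 and 576 CPM in principal-only cells. Elf5, a transcription factor of principal cells, had 82.1 and 48.8 CPM against 147 and 65.3 CPM in principal-only cells and 15.4 and 3.38 CPM in intercalated-only cells. Of the 11 principal genes, 10 lay between the single-identity levels in each library. The exceptions were Kcne1 in Kif3aΔTub, at 94.2 CPM against 64.8 and 32.2 CPM in principal-only and intercalated-only cells, and Scnn1a in WT, at 399.9 CPM against 339 and 242 CPM.

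**Figure D5:**
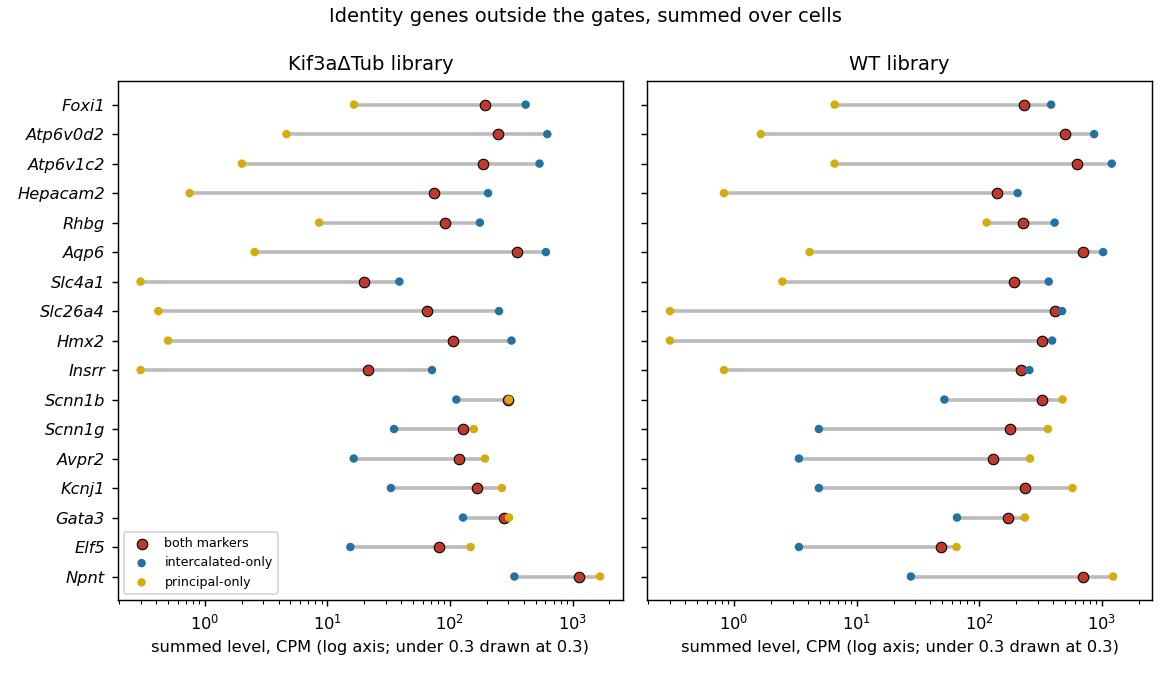
Summed level in CPM, on a log axis, of 10 intercalated genes and 7 principal genes in dual-marker ("both markers"), intercalated-only and principal-only cells of the Kif3aΔTub library (left) and the WT library (right). Grey lines join the single-identity levels, and levels under 0.3 CPM are drawn at 0.3. Dual-marker levels lie on the grey line for every gene drawn, such as Foxi1 at 192 CPM in Kif3aΔTub and 230 CPM in WT. The genes drawn are a selection. It leaves out Rhcg and Kcne1, outside that range in Kif3aΔTub, and Scnn1a, outside it in WT. Also left out is the type A gene above the range in each library.

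The anion exchangers separate the intercalated subtypes, and this reading was chosen after their values had been seen. Slc4a1 without Slc26a4 was found in 62 of 250 Kif3aΔTub and 9 of 24 WT dual-marker cells, and Slc26a4 without Slc4a1 in 47 and 13. Both exchangers were found in 10 Kif3aΔTub cells (4.0%) and 2 WT cells, and neither in 131 (52.4%) and 0. Intercalated-only cells had Slc4a1 alone in 89 of 480 Kif3aΔTub and 122 of 280 WT cells, Slc26a4 alone in 119 and 128, both in 7 and 5, and neither in 265 and 25. Dual-marker cells thus included cells with either exchanger in both libraries, and cells with neither in the Kif3aΔTub library, where many intercalated-only cells also had neither.

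Genes outside the range of both single-identity kinds were sought at 1.5-fold beyond the nearer kind with an interval that leaves out a ratio of 1. Of 9022 genes read deeply enough in both libraries, 0 (0%) lay above and 0 (0%) below both kinds in the Kif3aΔTub and the WT library together. In the Kif3aΔTub library alone 76 of 12627 genes (0.602%) lay above and 111 (0.879%) below. In the WT library alone 99 of 9049 (1.09%) lay above and 41 (0.453%) below. The genes named next were chosen after their values had been seen.

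In Kif3aΔTub, the 3 genes above the range at 50 CPM or more were Cd74, Oit1 and Klf6. Cd74, which guides MHC class II molecules to peptide loading, had 86.1 CPM against 30.0 in intercalated-only and 39.3 in principal-only cells. The 8 myeloid marker genes stood out with it. All 8 were above both single-identity levels in Kif3aΔTub dual-marker cells, at 175 CPM summed against 65.9 and 63.4 CPM, and C1qb alone had 34.1 against 9.72 and 9.92 CPM. In WT dual-marker cells their sum was 4.72 CPM, with 6 of 8 at 0. Without the 3 dual-marker cells that passed the myeloid gate, an alternative chosen after seeing the data, the myeloid sum was 68.2 CPM and C1qb 10.2 CPM, while Cd74 had 72.8 CPM and 53 genes lay above the range in place of 76. Without Scrublet-marked cells 44 did. In WT, Cdkn1a, a cell cycle inhibitor, had 69.3 CPM in dual-marker cells against 17.5 and 7.44 CPM, from 44 UMIs. Below the WT range, Klk1, tissue kallikrein of the connecting tubule, had 140 CPM against 1734 in intercalated-only and 1596 in principal-only cells. S100g, the calcium-binding protein calbindin-D9k, had 161 CPM against 422 and 4100 CPM, and Spp1, osteopontin, had 318 CPM against 2896 and 829 CPM.

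Between genotypes, dual-marker cells of the Kif3aΔTub library carried far more transcript of tubular injury genes, as did its single-identity cells. The dual-marker cells carried less transcript of the type B intercalated genes, as did intercalated-only cells to a lesser degree. Of 11233 genes with at least 20 UMIs over both libraries, 734 (6.53%) were at least 2-fold higher in Kif3aΔTub with an interval that leaves out a ratio of 1, and 445 (3.96%) were at least 2-fold lower. The median log2 ratio was 0.10. When mitochondrial transcripts were left out of the totals, every log2 ratio shifted by -0.21 and the counts became 466 higher and 670 lower. The median log2 ratio of all genes was then -0.11. Each gene's counts rest on 250 Kif3aΔTub and 24 WT cells, or 8188597 and 635094 summed UMIs, so 3 UMIs correspond to 0.366 CPM in Kif3aΔTub and 4.72 CPM in WT.

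Tubular injury genes stood out. Of 17 measured, 13 were higher and 1 lower in Kif3aΔTub, against the 6.53% and 3.96% of all genes, with a median log2 ratio of 2.29, or 1.84 with genes at 0 in WT set at their bound. S100a6, a calcium-binding protein, had 858 CPM in Kif3aΔTub against 1.57 CPM in WT from 1 UMI, a log2 ratio of 8.50 (6.61 to 14.4). Lcn2, lipocalin 2, had 3186 CPM against 36.2 CPM, and Spp1 had 11525 CPM against 318 CPM, with log2 ratios of 6.43 and 5.18. Socs3, the feedback inhibitor of cytokine signalling, had 132 CPM in Kif3aΔTub and 0 UMIs in WT. With 0 read as 3 UMIs, as for all folds against 0 UMIs here, it was at least 28.1-fold higher. The exact interval of its log2 ratio reached lower, to 4.51. Anxa3 was at least 19.6-fold higher on the same terms. The keratin Krt19 had 175 against 3.15 CPM. The lower gene was Cp, ceruloplasmin, at 2.81 CPM in Kif3aΔTub against 17.3 CPM in WT. Single-identity cells had the same direction for the list as a whole. Summed over its 20 genes, dual-marker cells had 27258 CPM in Kif3aΔTub and 4122 CPM in WT. Intercalated-only cells had 29525 and 5068 CPM, and principal-only cells 37942 and 5930 CPM. Lcn2 had 1504 CPM in Kif3aΔTub and 0 in WT intercalated-only cells, and 6633 and 125 CPM in principal-only cells.

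The other genes with the highest ratios were Sprr2f, Il18r1, Ly6a and Dcdc2a. Sprr2f, of the small proline-rich family, had 117 CPM in Kif3aΔTub and 0 UMIs in WT, at least 24.7-fold higher. Il18r1, the interleukin 18 receptor, had 58.4 CPM and 0 UMIs, at least 12.4-fold higher. Ly6a, or Sca-1, had 2015 CPM in Kif3aΔTub against 40.9 CPM in WT. Dcdc2a had 75.6 CPM against 1.57 CPM.

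Of 12 intercalated subtype genes, 7 were lower and 1 was higher, against 3.96% and 6.53% of all genes. All 5 type B genes were at least 2-fold lower in Kif3aΔTub dual-marker cells, with a median log2 ratio of -1.89. Summed over these 5 genes, dual-marker cells had 254 CPM in Kif3aΔTub and 1151 CPM in WT. Intercalated-only cells had 808 and 1555 CPM. Slc26a4 had 64.8 CPM in Kif3aΔTub against 412.5 CPM in WT, a log2 ratio of -2.67 (-2.89 to -2.45), and Insrr, the insulin receptor-related receptor, 21.6 against 217 CPM. Intercalated-only cells had Slc26a4 at 252 CPM in Kif3aΔTub and 473 CPM in WT, a log2 ratio of -0.91. Of 7 type A genes, Slc4a1 and Slc26a7 were lower and Dmrt2, a transcription factor, was higher. Adgrf5, an adhesion receptor, had a log2 ratio of 0.12 (-0.14 to 0.39). With totals free of mitochondrial transcripts, Aqp6, an intracellular aquaporin, and Avpr1a, a vasopressin receptor, passed the fold as well, which made 4 lower. Slc4a1 had 19.9 against 190.5 CPM and Dmrt2 91.8 against 29.9 CPM. In intercalated-only cells Slc4a1 had 38.7 CPM in Kif3aΔTub and 368 CPM in WT.

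The general intercalated genes were nearer to each other. Of 9, Atp6v0d2, Atp6v1c2 and Rhbg were at least 2-fold lower and 0 higher, against 3.96% and 6.53% of all genes, with a median log2 ratio of -0.60. With totals free of mitochondrial transcripts 4 were lower. Foxi1 differed by a log2 ratio of -0.26 (-0.50 to -0.0026). Atp6v1c2, a cytosolic-sector proton pump subunit, had 185 CPM in Kif3aΔTub against 630 CPM in WT. Of 20 measured vacuolar ATPase genes other than Atp6v1g3, 3 of them also on the intercalated list, Atp6v0d2, Atp6v1a and Atp6v1c2 were lower and 0 higher, against 3.96% and 6.53% of all genes, and with totals free of mitochondrial transcripts 5 were lower.

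Of the 4 lists of principal and intercalated genes, the principal list had the median ratio nearest to 0. Of 11, Kcne1 was lower, at 94.2 CPM in Kif3aΔTub against 296 CPM in WT, and 0 were higher, against 3.96% and 6.53% of all genes. The median log2 ratio was -0.13, or -0.33 with totals free of mitochondrial transcripts. Scnn1a had 371 and 399.9 CPM and Scnn1b 298 and 324 CPM. Aqp2, a gate gene, had a log2 ratio of 0.16, which became -0.05 when mitochondrial transcripts were left out of the totals. Of 5 connecting tubule genes, Klk1, S100g and the calcium channel Trpv5 were higher and Calb1, calbindin-D28k, was lower. Of all genes 6.53% were higher and 3.96% lower. Klk1 had 998 CPM in Kif3aΔTub against 140 CPM in WT, and Calb1 140 against 502 CPM. Principal-only cells went the other way for Klk1, at 215 CPM in Kif3aΔTub and 1596 CPM in WT, and S100g, at 900 and 4100 CPM. Intercalated-only cells had Klk1 at 2689 and 1734 CPM and S100g at 1917 and 422 CPM. The 5 genes summed to 6805 CPM in WT principal-only cells against 811 CPM in WT dual-marker cells.

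Fate genes were mixed. Of 22 measured genes of collecting duct fate and Notch signalling, Notch1 and Dmrt2 were higher, and Dll1, Heyl and Hmx2 were lower, against 6.53% and 3.96% of all genes. Notch1, a Notch receptor, had 36.6 CPM in Kif3aΔTub against 15.7 CPM in WT, and this call was lost when mitochondrial transcripts were left out of the totals. Dll1, a Notch ligand, had 14.3 against 40.9 CPM. Hes1, a Notch target, had 183 and 209 CPM, a log2 ratio of -0.20 (-0.45 to 0.07). Gata3, a principal cell transcription factor, had 278 and 170 CPM, and Tfcp2l1, a regulator of intercalated development, had 1014 and 1540 CPM. The genes reported for transitional cells in mouse kidney were Parm1, Sec23b and Syt7. Parm1 had 46.0 CPM in Kif3aΔTub and 85.0 CPM in WT, Sec23b 71.7 and 142 CPM, and Syt7 5.62 and 112 CPM. Syt7 was lower by the 2-fold rule, and with totals free of mitochondrial transcripts all 3 were. In WT dual-marker cells Syt7 was above intercalated-only cells, at 58.4 CPM, and principal-only cells, at 0.

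Early response genes, which also rise during tissue dissociation, were higher in 12 of 19 cases and lower in 0, against 6.53% and 3.96% of all genes, with a median log2 ratio of 1.52, or 1.36 with Atf3 at its bound. With totals free of mitochondrial transcripts 11 were higher. Single-identity cells had the same direction for the list as a whole. Summed over its 19 genes, dual-marker cells had 3548 CPM in Kif3aΔTub and 1989 CPM in WT. Intercalated-only cells had 3674 and 1870 CPM, and principal-only cells 2929 and 2211 CPM. Klf4 had 63.9 CPM in Kif3aΔTub against 1.57 CPM in WT, and Ier3 203.5 against 33.1 CPM. Of 20 nuclear oxidative phosphorylation genes, Sdha was lower and 0 higher, against 3.96% and 6.53% of all genes. All 20 lay between the single-identity levels in both libraries. So did 53.3% of all genes read deeply enough in Kif3aΔTub and 47.0% in WT. Of 9 measured kinesin-2 and cilium genes, 0 were higher and 0 lower, against 6.53% and 3.96% of all genes. Ift88, an intraflagellar transport protein, had 24.2 and 20.5 CPM. Of 9 cell cycle genes, only Stmn1 was called, at 61.4 CPM in Kif3aΔTub against 12.6 CPM in WT. It was higher, and 0 were lower, against 6.53% and 3.96% of all genes. Of these 9 genes, 5 had 0 UMIs in WT.

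The 10 lowest ratios included proximal tubule transcripts. Kap, the androgen-regulated protein of proximal tubule, had 6.47 CPM in Kif3aΔTub against 213 CPM in WT, Slc34a1, the sodium-phosphate cotransporter, 9.89 against 113 CPM, and Miox 6.23 against 102 CPM. Acsm2 was also among the 10 lowest, as were Acot3, Atp2b2, Enpp2, Rorb, Ank and Syt7. In intercalated-only cells Acot3, Rorb, Ank and Syt7 had 19.4, 9.72, 22.6 and 12.4 CPM in Kif3aΔTub. The WT intercalated-only levels of these 4 genes were 121, 49.8, 40.0 and 58.4 CPM, against at most 0.826 CPM in WT principal-only cells. The 8 proximal tubule markers summed to 24.5 CPM in Kif3aΔTub and 246 CPM in WT dual-marker cells, against 60.2 and 187 CPM in intercalated-only and 39.4 and 100.0 CPM in principal-only cells. In Kif3aΔTub 1 of 8 was at 0 and in WT 1 of 8. Of 5 measured, 4 were lower, or 5 with totals free of mitochondrial transcripts, against 3.96% of all genes. Without the WT cell that passed the proximal tubule gate the WT sum was 126 CPM, with Slc34a1 at 60.7, Miox at 36.1 and Kap at 213 CPM. Myeloid markers stood the other way, with 7 of 8 higher in Kif3aΔTub, against 6.53% of all genes, and Csf1r, at 4.40 CPM and 0 UMIs, not called. Their sum of 175 CPM in Kif3aΔTub was 68.2 CPM without the 3 cells that passed the myeloid gate, against 4.72 CPM in WT. Of the other classes, Cldn16 of the thick limb and Trpm6 of the distal convoluted tubule each had 7.82 CPM in Kif3aΔTub and 0 UMIs in WT. With 0 read as 3 UMIs they were at least 1.65-fold higher, and the exact interval of each log2 ratio reached down to 0.39. The B cell gene Cd79b had 11.2 against 1.57 CPM. Of 4 measured endothelial genes 0 were higher and 0 lower, against 6.53% and 3.96% of all genes. The part of free RNA in these levels was not tested.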

How the data were processed

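The filtered gene-by-cell UMI count matrices that the authors deposited were used unchanged, with 31053 genes. Cell Ranger 3.1.0 made them per the file headers, while the submitters' processing notes name Cell Ranger 3.0.2, Seurat 3.1.1 and build mm10. Gene positions come from GENCODE vM21. Scrublet, run through scanpy 1.11.5 on each library with an expected rate of 0.06, only marked doublets, and none were removed. UMIs were summed over cells and scaled to a total of 1000000 (CPM). Log2 ratios are Kif3aΔTub over WT with 0.5 UMIs added to each sum. Shares have exact Clopper-Pearson intervals, and ratios have exact conditional intervals of 2 Poisson sums, which take UMIs as independent. The other class gates needed at least 3 UMIs and 0.3% of UMIs over their markers. Positions used genes with at least 50 CPM in the higher kind of cell. A count of 0 was read as up to 3 counts. Each script was tested on simulated data. Further tools were Python 3.11.15, scipy 1.17.1, and edgeR 4.0.16 for trimmed mean scaling.

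The members and the gene lists were chosen with earlier results of these data known. Genes named were the gate and label markers, all genes of the intercalated, type A, type B, principal, connecting tubule, vacuolar ATPase, fate and transitional lists, and the 10 highest and 10 lowest ratios at 50 CPM and 30 UMIs or more with an interval that leaves out 0. Mitochondrial, ribosomal, haemoglobin and predicted genes were left out of these. Up to 10 genes on each side of the single-identity range in both libraries could be named, and up to 4 genes of each other list. Genes named outside this rule were chosen after their values had been seen. Alternatives changed the filters, gates, depth, scaling and cell weights.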

Additional observations from a re-analysis of the deposited data

How the results depend on the processing

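Of 192 values recomputed under an alternative, 153 stayed within their interval or within 1.5 times the main count and 39 moved. A change of direction was not scored. A mitochondrial limit of 25% gave WT dual-marker cells 0.997% of kept cells and 12.3% of Atp6v1g3 cells, 53 WT genes above both single-identity kinds and 1 gene below in both libraries (AY036118). A principal threshold of 1% gave Kif3aΔTub shares of 1.12% of kept, 10.9% of Atp6v1g3 and 7.16% of principal-threshold cells, and WT shares of 0.297% and 4.15% of kept and Atp6v1g3 cells. It also gave a WT depth ratio to the summed medians of 1.79, positions of 0.343 in Kif3aΔTub and 0.387 in WT, Kif3aΔTub list ratios of 0.667 (intercalated) and 0.864 (principal), 482 genes higher in Kif3aΔTub, 47 Kif3aΔTub genes above the range and 3 genes below in both libraries (S100g, Stmn1, mt-Nd6). Thinning to 4000 UMIs gave Kif3aΔTub shares of 27.8% of Atp6v1g3 cells and 8.50% of principal-threshold cells, a depth ratio of 1.17, a principal list ratio of 0.562, and positions of 0.479 in Kif3aΔTub and 0.560 in WT. Without Scrublet-marked cells, the 6 other classes had Atp6v1g3 in 0.0809% of Kif3aΔTub and 0.127% of WT cells, and 44 Kif3aΔTub genes lay above the range. Totals without mitochondrial genes gave 466 higher and 670 lower genes and 1 gene below in both libraries (AY036118). Equal cell weights gave 1 gene above (Paox) and 3 below (AY036118, Gm42418, mt-Nd6) in both libraries, 126 Kif3aΔTub genes above, 72 Kif3aΔTub and 71 WT genes below. Chosen after seeing the data, class gates at 0.15% gave 0.615% in WT, an intercalated list without Car2, Rhcg and Tmem213 gave 0.398 in Kif3aΔTub, and leaving out members of another class gate gave 1 gene above (Pitpnm1) and 1 below (Pck1) in both libraries. Except where the setting itself changes the cells or totals, the cause was not tested.

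No paired analysis was possible because each genotype has 1 library. The WT values rest on 24 cells, so a count of 0 there allows up to 4.72 CPM, and mice cannot be told apart within a library.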
